A study of Homo sapiens with 8 samples.

Results

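BETp present was compared with BETp absent in both cholangiocarcinoma (CCA) cell lines of the study. The comparison set the 4 samples with BETp against the 4 samples without it, and so used 8 of the 8 samples of the series. CCA is a cancer of the bile duct epithelium, and SNU1079 and SSP25 are human lines grown from such tumours. BETp is ARV825, a molecule that binds BET bromodomain proteins with one arm and the ubiquitin ligase subunit cereblon with the other, so that the proteins are ubiquitinated and destroyed. The 4 samples with BETp were SNU1079 and SSP25 cells given BETp at 40 nM, and SNU1079 and SSP25 cells given BETp together with mTORi, for which the labels state no doses. The 4 samples without BETp were the same lines given 0.01% DMSO as vehicle, or mTORi alone at 50 nM. mTORi is AZD8055, a small molecule that blocks the kinase mTOR, a driver of protein synthesis and growth. All samples were taken after 48 h. Each line and treatment had 1 sample, so each pair of samples with and without BETp shared the line and the presence of mTORi, and 4 pairs resulted. No sample served in more than 1 pair. Both lines came from 1 culture per treatment as far as the labels say. The p-values below rest on the spread between these 4 pairs, which limma draws toward the spread of other genes of similar level. The spread between pairs also holds real differences between lines and between mTORi states.

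BET proteins, among them BRD2, BRD3 and, in testis, BRDT, read acetylated lysines on histone tails and bring the elongation factor P-TEFb to promoters and enhancers, so that paused RNA polymerase II is released. Genes with dense enhancers, among them MYC in many tumours and the cytokine genes under NF-kB, are the best known to depend on them. HEXIM1, which holds P-TEFb inactive, and several histone genes are known to respond in the other direction in other cells treated with BET inhibitors.

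RNA was measured as TPM, a length-adjusted abundance scaled to a fixed total per sample. Depth cannot be read from TPM and is unknown here. A sample held 13308 to 14526 genes at or above 1 TPM. Differences are given as the average over the 4 pairs of log2(TPM + 1) with BETp minus without BETp. This scale understates the change of low genes. After ± stands the SE from limma (n = 4 pairs). That SE borrows from the spread of other genes and is not the plain SE of the 4 pair differences. Of 16060 genes tested, 119 rose (0.741%) and 343 fell (2.14%) with BETp at a limma adjusted p below 0.05. All 462 moved in 1 direction in all 4 pairs. Over all tested genes, 1426 were higher in all 4 pairs (8.88%) and 3723 were lower in all 4 pairs (23.2%), and with a difference of at least 0.5 in every pair these counts were 64 (0.399%) and 87 (0.542%). The counts of gene lists below are to be read beside these shares. Flipping signs over 4 pairs cannot give a two-sided p below 0.13, so agreement of 4 pairs is given as a count with no test. The median over all tested genes was -0.08, and quantile normalization, which removes that shift, turned the split to 138 higher and 102 lower.

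The number of called genes depended on having all 4 pairs. With limma and 1 pair left out, 7 genes were called without the SNU1079 pair lacking mTORi, 12 without the SNU1079 pair with mTORi, 9 without the SSP25 pair lacking mTORi and 3 without the SSP25 pair with mTORi. The 3 were HIST1H2AE, HIST1H2BG and SQSTM1. All 462 genes kept their direction in each of these fits, which follows from their 1 direction in all 4 pairs. SQSTM1 was called in each of the 4, and HIST2H2BE and HIST1H2BG in 3 of them. In all, 19 of the 462 were called in at least 1 of the 4 fits. Among the 87 called genes that the rule for named genes took, leaving out a pair moved a difference by at most 1.31 times. With limma, 0 genes were called without the pairing (355 at an unadjusted p below 0.05), and 0 with robust moderation without an intensity trend (3751 at an unadjusted p below 0.05).

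**Figure D1:**
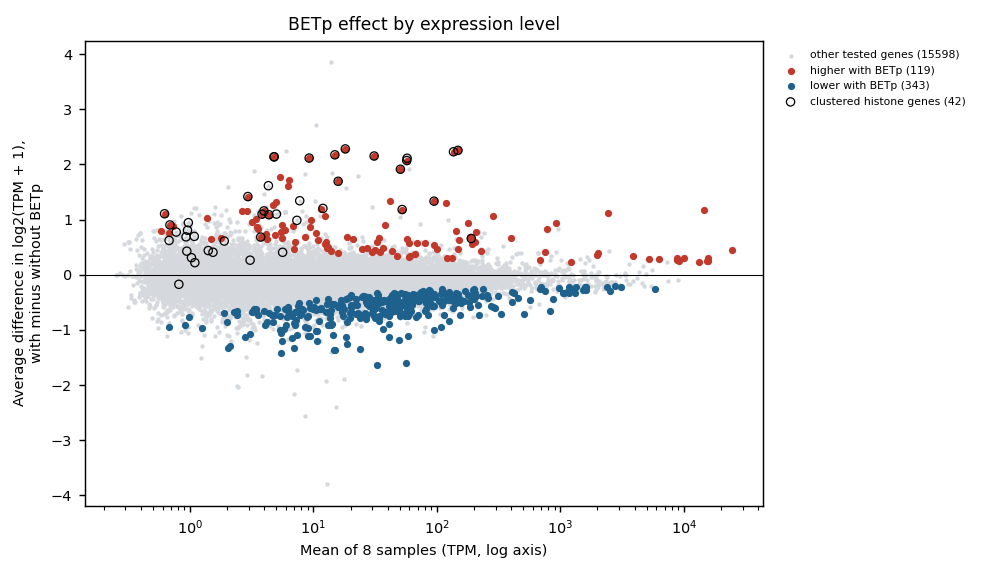
Average difference in log2(TPM + 1) with minus without BETp (vertical axis) against the mean TPM of the 8 samples (horizontal log axis), 1 point per tested gene. Red points are the 119 genes that rose and blue points the 343 that fell, and black circles mark the 42 clustered histone genes, which lie mostly above 0 and include the highest of the red points.

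Among transcripts of the proteins that BETp binds, BRD2 rose and BRD3 did not pass the test, and neither cereblon nor the P-TEFb genes gave a call. BRD2 (chr6:32936371-32949282, GRCh37) had 180, 166, 164 and 177 TPM with BETp, against 130, 134, 122 and 111 TPM without BETp. Here and below, values with BETp are listed as SNU1079 BETp, SNU1079 BETp + mTORi, SSP25 BETp and SSP25 BETp + mTORi, and values without BETp as SNU1079 vehicle, SNU1079 mTORi, SSP25 vehicle and SSP25 mTORi. The groups did not overlap, and the difference was 0.47 ± 0.07 (limma adjusted p = 0.036). With 1 pair left out the adjusted p of BRD2 ran from 0.083 to 0.13. BRD3 differed by 0.15 ± 0.17, lower in both SNU1079 pairs and higher in both SSP25 pairs. BRDT did not reach the expression limit. RNA levels do not show how much BET protein remained.

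By limma 0 of the 21 tested genes of the list of cereblon, its ligase and related genes were called (7 at an unadjusted p below 0.05). Of the 21, 10 were lower and 1 higher in all 4 pairs, beside 23.2% and 8.88% of all tested genes. The 1 that was higher was GLUL, which encodes glutamine synthetase and is not a part of the ligase (0.25 ± 0.10). With quantile normalization 3 were lower and 4 higher in all 4 pairs. CRBN itself, the subunit that BETp recruits, differed by -0.15 ± 0.08. By limma 0 of the 21 P-TEFb and elongation genes were called (2 at an unadjusted p below 0.05), with 2 higher and 0 lower in all 4 pairs. HEXIM1 had 85.3, 86.6, 14.5 and 13.1 TPM with BETp, against 78.2, 73.2, 13.4 and 15.9 TPM without BETp. It was higher in 3 pairs and lower in the SSP25 pair with mTORi, and the average was 0.05 ± 0.09 (limma adjusted p = 0.76). CDK9, the kinase of P-TEFb, was higher in all 4 pairs by 0.23 ± 0.07 on average but did not pass the test (limma adjusted p = 0.096).

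MYC, the transcription factor whose loss is often used as a readout of BET inhibition, was lower with BETp in all 4 pairs by a small amount. It had 98.0, 124, 31.6 and 43.8 TPM with BETp, against 121, 149, 41.8 and 44.3 TPM without BETp. The difference was -0.24 ± 0.08 (limma adjusted p = 0.12), and in the SSP25 pair with mTORi it was only -0.01. By limma 0 of 12 tested genes of the MYC network (2 at an unadjusted p below 0.05) and 0 of 23 MYC target genes (8 at an unadjusted p below 0.05) were called. Of the 23 targets 10 were lower and 2 higher in all 4 pairs, beside 23.2% and 8.88% of all tested genes. Their median was -0.13, beside -0.08 over all genes. MTOR differed by 0.03 ± 0.08.

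The largest rises among called genes were in histone genes. These genes lie in clusters on chromosomes 1 and 6 and encode the core histones H2A, H2B, H3 and H4 and the linker histone H1, around which DNA is packed. Of 42 clustered histone genes tested, 21 rose and 0 fell, 25 were higher and 0 lower in all 4 pairs, and the median difference was 1.10, beside -0.08 over all genes. These 42 were the ones of 89 that reached 1 TPM in 2 or more samples. A gene could pass this limit through the samples with BETp alone, which favours rises in these counts. With no filter the median was smaller, as given in the closing sections. The sum over the clusters covers all 89 of these genes, tested or not. It reached 1513, 1544, 1267 and 1598 TPM with BETp, against 556, 355, 417 and 529 TPM without BETp. The lowest sum with BETp was thus more than the highest without it. By class, 7 of 11 H2A, 6 of 14 H2B, 4 of 7 H3, 3 of 7 H4 and 1 of 3 H1 genes rose. Among the 18 with a mean of at least 5 TPM, 12 rose with a group median of 1.80, and among the 24 lower ones 9 rose with a group median of 0.73.

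Among histone genes with a mean of at least 5 TPM, the 7 called ones with the largest rises were 4.20- to 4.86-fold higher with BETp on the log2(TPM + 1) scale. HIST2H2BE, an H2B gene at chr1:149856009-149858232 (GRCh37), had 31.0, 26.0, 24.4 and 41.2 TPM with BETp, against 7.59, 3.72, 4.48 and 6.50 TPM without BETp. The 4 samples with BETp were all above the 4 without it, and the difference was 2.28 ± 0.12 (limma adjusted p = 0.0058). HIST1H1C, which encodes the linker histone H1.2, lies at chr6:26055968-26056698 in the chromosome 6 cluster. It had 299, 334, 146 and 208 TPM with BETp, against 72.7, 43.8, 42.2 and 40.9 TPM without BETp, a difference of 2.25 ± 0.17 (limma adjusted p = 0.0099). HIST1H2BG, another H2B gene, had 20.6, 18.7, 8.65 and 14.4 TPM with BETp, against 4.11, 4.08, 1.62 and 1.65 TPM without BETp. HIST1H2AE, an H2A gene at chr6:26217149-26217665, had 31.6, 33.5, 13.9 and 20.7 TPM with BETp, against 7.0, 4.91, 1.61 and 6.12 TPM without BETp. In neither gene did the groups overlap, and the differences were 2.11 ± 0.13 for HIST1H2BG and 2.17 ± 0.17 for HIST1H2AE.

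HIST1H2BC and HIST1H2AC form a second pair of H2B and H2A genes that rose together. HIST1H2BC had 70.0, 55.2, 35.0 and 44.1 TPM with BETp, against 18.0, 7.19, 9.28 and 9.43 TPM without BETp (2.15 ± 0.16). HIST1H2AC had 118, 110, 124 and 192 TPM with BETp, against 72.0, 40.8, 41.5 and 60.0 TPM without BETp (1.33 ± 0.15). HIST1H2BD (1.91 ± 0.18) and the H4 genes HIST2H4A (2.07 ± 0.17) and HIST1H4H (1.69 ± 0.12) rose too. Some members are near-identical copies between which counting can split reads. HIST2H3A and HIST2H3C carried the same average of 2.14, HIST2H2AA4 (2.23 ± 0.31) rose while its copy HIST2H2AA3 did not pass the test (2.11, limma adjusted p = 0.36), and HIST2H4A rose while its copy HIST2H4B did not (1.34, limma adjusted p = 0.35). The values of these copies are uncertain. With 1 pair left out, 2 to 6 of the 21 histone calls passed the threshold. The fewest (2) were left without the SSP25 pair with mTORi, 3 without the SSP25 pair lacking mTORi, 5 without the SNU1079 pair lacking mTORi and 6 without the SNU1079 pair with mTORi. With quantile normalization, 17 of the 21 passed.

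Outside the clusters, 2 of 13 genes of the histone variant list rose. They were HIST3H2A, which lies in a small cluster of its own and is also counted above (1.18 ± 0.14), and H1FX, a linker histone with a polyadenylated transcript (0.47 ± 0.06). Clustered histone mRNAs mostly end in a stem loop in place of a poly(A) tail, as small nuclear RNAs also lack such a tail. Of 51 tested small RNAs (small nucleolar, spliceosomal and other short classes), 0 were called by limma (16 at an unadjusted p below 0.05) and 0 moved in 1 direction in all 4 pairs. A difference of exactly 0 counts as neither direction, and the median of these small RNAs was 0 in both SNU1079 pairs. That count was thus limited by its rule and gives no contrast to the histones. RNVU1-7, a variant of the U1 spliceosomal RNA that the list does not hold, was called, and is named here after its values were seen. It had 2.62, 5.24, 25.2 and 2.98 TPM with BETp, against 0, 2.21, 4.51 and 0 TPM without BETp (1.76 ± 0.22, limma adjusted p = 0.026), and with 1 pair left out its call was kept only without the SNU1079 pair with mTORi. The sum over the small RNA list covers all 3226 of its members, tested or not. It was 638, 493, 841 and 404 TPM with BETp, against 586, 429, 514 and 336 TPM without BETp. These groups overlapped, but the sum was higher with BETp in all 4 pairs.

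The promoters of the histone genes that rose are shown because the genes moved together and sit side by side. RefSeq promoter windows (GRCh38.p14, 250 bases before to 50 after each start) were found for all 21 histone genes that rose, 24 windows in all. TATAAA (the TATA box) was present on either strand in 79.2% of them and CCAAT (the CCAAT box) in 87.5%, beside 11.5% and 34.6% of all 35116 windows in the table. Capitals mark matches on either strand to these motifs, to CACGTG (E box), to TGACNNNGC (core of the antioxidant response element) or to TGANTCA (AP-1 site). A match is only a description of letters.
HIST2H2BE: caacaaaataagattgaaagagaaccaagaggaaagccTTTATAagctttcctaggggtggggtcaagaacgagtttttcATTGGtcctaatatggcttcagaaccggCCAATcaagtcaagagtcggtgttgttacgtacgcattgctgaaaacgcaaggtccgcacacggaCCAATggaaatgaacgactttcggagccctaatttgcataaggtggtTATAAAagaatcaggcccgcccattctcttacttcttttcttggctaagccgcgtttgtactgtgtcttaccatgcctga
HIST1H1C: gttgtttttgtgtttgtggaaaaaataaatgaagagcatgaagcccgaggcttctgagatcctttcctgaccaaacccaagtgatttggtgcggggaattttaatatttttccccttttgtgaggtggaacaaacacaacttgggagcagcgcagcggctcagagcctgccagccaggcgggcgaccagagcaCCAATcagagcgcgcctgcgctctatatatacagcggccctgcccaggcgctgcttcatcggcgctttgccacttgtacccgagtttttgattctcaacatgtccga
HIST1H2BG: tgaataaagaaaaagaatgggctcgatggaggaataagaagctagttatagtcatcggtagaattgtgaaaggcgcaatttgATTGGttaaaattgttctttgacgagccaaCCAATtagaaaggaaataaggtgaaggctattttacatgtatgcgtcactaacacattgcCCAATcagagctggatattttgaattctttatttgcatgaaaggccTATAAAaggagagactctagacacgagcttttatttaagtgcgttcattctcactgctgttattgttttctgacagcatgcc
HIST1H2BC: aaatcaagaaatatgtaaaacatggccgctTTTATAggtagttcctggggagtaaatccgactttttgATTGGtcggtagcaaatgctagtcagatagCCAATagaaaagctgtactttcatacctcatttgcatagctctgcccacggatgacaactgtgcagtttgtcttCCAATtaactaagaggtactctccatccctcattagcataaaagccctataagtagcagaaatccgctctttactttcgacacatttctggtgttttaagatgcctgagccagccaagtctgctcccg
HIST1H2BD: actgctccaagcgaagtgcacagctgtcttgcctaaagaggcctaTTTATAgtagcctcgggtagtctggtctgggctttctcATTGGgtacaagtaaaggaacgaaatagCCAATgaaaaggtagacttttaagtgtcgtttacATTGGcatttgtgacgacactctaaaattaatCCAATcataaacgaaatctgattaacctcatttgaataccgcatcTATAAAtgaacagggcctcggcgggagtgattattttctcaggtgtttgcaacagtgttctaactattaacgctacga
The windows lie at chr1:149886633-149886932 (minus strand) for HIST2H2BE, chr6:26056421-26056720 (minus) for HIST1H1C, chr6:26216639-26216938 (minus) for HIST1H2BG, chr6:26123877-26124176 (minus) for HIST1H2BC and chr6:26157871-26158170 (plus) for HIST1H2BD. The HIST1H2BG window shares 268 bases with that of HIST1H2AE, which is read from the other strand, and the HIST1H2BC window shares 255 bases with that of HIST1H2AC. Each of these windows thus serves a pair of divergent genes that both rose. HIST1H1C has 1 CCAAT box and no TATAAA, while HIST2H2BE has 2 matches to TATAAA and 3 CCAAT boxes. Over the 41 windows found for 37 of the 42 tested histone genes, called or not, 65.9% held TATAAA and 82.9% held CCAAT.

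**Figure D2:**
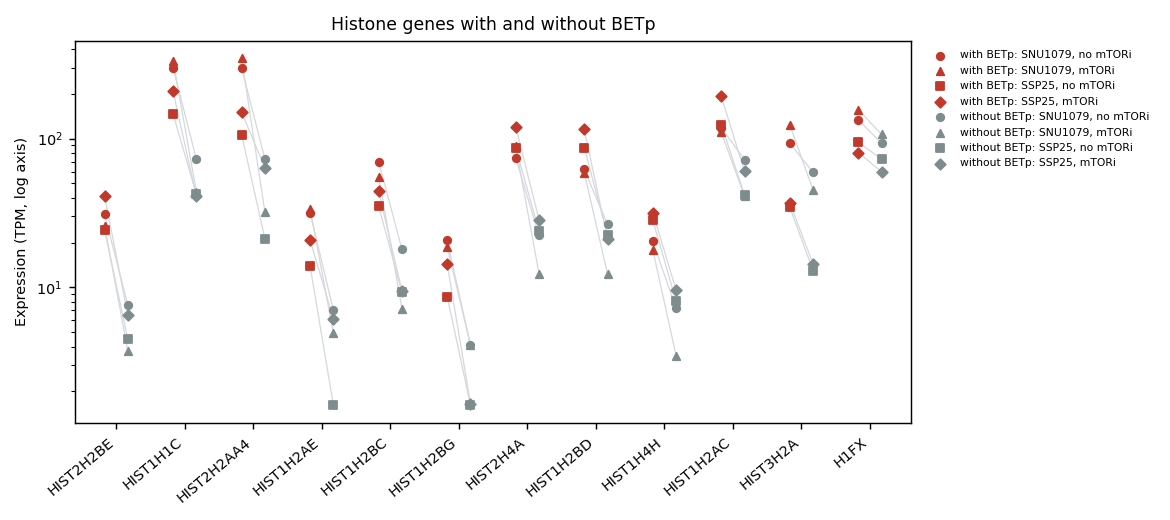
TPM (log axis) of 12 histone genes in each sample, with the 4 samples with BETp in red on the left of each gene and the 4 without BETp in grey on the right, and grey lines joining the 2 samples of a pair. For the 10 genes from HIST2H2BE to HIST1H2AC, every sample with BETp lies above every sample without it, as for HIST2H2BE with 24.4 to 41.2 TPM with BETp and 3.72 to 7.59 TPM without BETp.

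The genes that rose were short and often had 1 exon, also outside the histone clusters. Of the 99 risers with an annotated transcript, 45.5% had 1 exon, beside 0.604% of 331 fallers and 4.35% of all 13831 tested genes with one. With the clustered histones left out, the share of risers with 1 exon was 31.6% of 79. These include the mitochondrial mRNAs described below. Median gene length was 6646 bp for risers, 28365 bp for fallers and 30829 bp for all tested genes.

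Among the other leading risers were IFITM10, a member of the interferon-induced transmembrane family at chr11:1753636-1771825, and C5orf45. IFITM10 had 6.60, 5.40, 12.7 and 13.8 TPM with BETp, against 1.10, 0.72, 5.01 and 4.19 TPM without BETp (1.61 ± 0.15, limma adjusted p = 0.012). C5orf45 had 55.8, 41.5, 71.0 and 72.7 TPM with BETp, against 20.1, 19.8, 27.5 and 23.6 TPM without BETp (1.35 ± 0.10, limma adjusted p = 0.0099). It lies on the minus strand of chr5:179262133-179289173 and shares 2946 bp with the end of SQSTM1 on the plus strand, which rose too. Libraries kept strand, but whether counting used it is not given in the sources used here, so the rise of C5orf45 cannot be told apart from reads of SQSTM1. NEAT1, a long nuclear RNA, had 383, 346, 309 and 475 TPM with BETp, against 250, 239, 113 and 152 TPM without BETp (1.06 ± 0.20, limma adjusted p = 0.048).

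**Figure D3:**
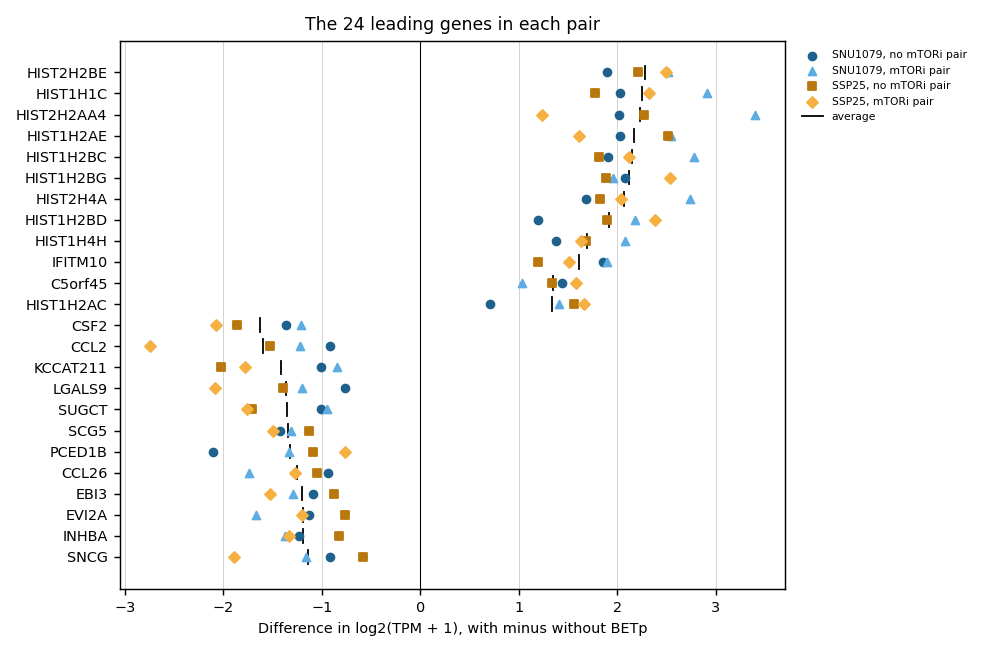
Difference in log2(TPM + 1), with minus without BETp, in each of the 4 pairs for the 12 genes with the largest rises and the 12 with the largest falls, with the average as a black bar. Circles and triangles are SNU1079 pairs and squares and diamonds SSP25 pairs. All 4 points of a gene lie on 1 side of 0, and HIST2H2AA4 and CCL2 show the widest scatter, with averages of 2.23 and -1.60.

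Genes of the NRF2 programme split into members that rose and members that did not. NRF2 is the transcription factor that switches on genes against oxidative stress, among them those for iron storage and thioredoxin. Of 31 tested targets 8 rose and 1 fell, 11 were higher and 5 lower in all 4 pairs, and the median was 0.16, beside -0.08 over all genes. By pair that median was 0.28 and 0.32 in SNU1079, and -0.02 and 0.09 in SSP25, lacking mTORi first. Among the 8 were FTL and FTH1, which encode ferritin, SQSTM1 (the autophagy receptor p62), SRXN1 (sulfiredoxin), OSGIN1, TXNRD1 (thioredoxin reductase) and HMOX1 (haem oxygenase).

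FTL (chr19:49468566-49470136, GRCh37) had 13556, 11372, 25768 and 29011 TPM with BETp, against 6355, 4189, 13559 and 12386 TPM without BETp. The difference was 1.17 ± 0.08 (limma adjusted p = 0.0099), and within each line both samples with BETp were above both without it. FTH1 had 11883, 9689, 46928 and 45783 TPM with BETp, against 9616, 6630, 33614 and 33905 TPM without BETp (0.44 ± 0.05, limma adjusted p = 0.021). Together the ferritin transcripts took 2.55, 2.11, 7.28 and 7.49% of all TPM with BETp, against 1.60, 1.08, 4.72 and 4.63% without BETp. Since TPM sum to a fixed total, a rise of this size lowers the values of all other genes slightly. Both ferritin calls were lost with quantile normalization (0.64, limma adjusted p = 0.14 for FTL, and 0.04, limma adjusted p = 0.68 for FTH1), which sets the highest ranks of every sample to the same values.

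SQSTM1 (chr5:179233398-179265078) had 1852, 1566, 4829 and 4998 TPM with BETp, against 869, 686, 2526 and 2066 TPM without BETp. The difference was 1.12 ± 0.06 (limma adjusted p = 0.0058), and with 1 pair left out the adjusted p ran from 0.036 to 0.047. Of 29 autophagy genes tested it was the only one called. SRXN1 had 165, 109, 333 and 362 TPM with BETp, against 97.7, 69.5, 171 and 134 TPM without BETp (0.95 ± 0.13). TXNRD1 had 742, 748, 1144 and 1258 TPM with BETp, against 433, 287, 879 and 731 TPM without BETp (0.83 ± 0.14). Both were higher with BETp in every pair, while the groups overlapped because the lines differ in level. OSGIN1 rose by 0.90 ± 0.07 and HMOX1 by 0.53 ± 0.06. NQO1, the quinone reductase often used as a marker of NRF2, was higher in all 4 pairs but did not pass the test (0.82 ± 0.20, limma adjusted p = 0.075).

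The only target of the list that fell was an aldo-keto reductase. AKR1C2 had 11.2, 4.34, 72.4 and 22.5 TPM with BETp, against 33.9, 10.6, 122 and 49.9 TPM without BETp (-1.12 ± 0.12, limma adjusted p = 0.022). AKR1B10 (-0.63) and AKR1C1 (-0.59) were lower in all 4 pairs without passing the test. AKR1C genes share long stretches of sequence, so reads may be split among them. SLC7A11, the cystine carrier, differed by 0.12 ± 0.09. With 1 pair left out, SQSTM1 alone kept its call without the SNU1079 pair lacking mTORi or the SSP25 pair with mTORi, and SQSTM1 and FTL kept theirs without either of the other pairs. The promoter of TXNRD1 is shown because, of the NRF2 targets that rose, only its windows held the antioxidant response element core.
TXNRD1: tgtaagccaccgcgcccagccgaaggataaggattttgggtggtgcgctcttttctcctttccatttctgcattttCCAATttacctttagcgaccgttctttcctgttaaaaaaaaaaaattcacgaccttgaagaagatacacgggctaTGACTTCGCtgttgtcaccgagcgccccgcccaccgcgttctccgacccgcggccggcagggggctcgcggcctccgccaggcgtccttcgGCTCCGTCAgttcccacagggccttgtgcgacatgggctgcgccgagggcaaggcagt
This window (chr12:104215529-104215828, GRCh38.p14, plus strand) holds 2 matches to TGACNNNGC, 1 on each strand, and 1 CCAAT box. The motif occurred in 13.3% of all windows of the table. Windows were found for only 5 of the 8 NRF2 targets that rose. Of their 8 windows 2 held the motif, both of TXNRD1, and those of FTL, OSGIN1 and SRXN1 did not. The windows of TRIB3, a gene that fell, held it too. None of the 3 windows of SQSTM1 held a match to the motifs marked in capitals here.

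Several cytokine genes were among the largest falls. Of 31 tested inflammatory genes 4 fell and 1 rose, 11 were lower and 1 higher in all 4 pairs, and the median was -0.29, beside -0.08 over all genes. CSF2, which encodes the growth factor GM-CSF, showed the largest fall among called genes. It had 4.55, 8.05, 20.5 and 22.2 TPM with BETp, against 13.3, 20.0, 77.1 and 96.6 TPM without BETp. The difference was -1.63 ± 0.15 (limma adjusted p = 0.014), and every pair was lower. CCL2, a chemokine for monocytes, had 107, 26.5, 7.33 and 1.62 TPM with BETp, against 204, 62.9, 23.0 and 16.5 TPM without BETp (-1.60 ± 0.28, limma adjusted p = 0.043). INHBA, the subunit of activin A, had 48.7, 55.6, 3.17 and 4.48 TPM with BETp, against 116, 146, 6.38 and 12.8 TPM without BETp (-1.19 ± 0.11, limma adjusted p = 0.012). All pairs of both genes were lower, although the lines differ several-fold in level.

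CXCL8, the neutrophil chemokine IL-8, had 3.50, 5.26, 146 and 213 TPM with BETp, against 5.46, 14.0, 328 and 289 TPM without BETp (-0.85 ± 0.15, limma adjusted p = 0.048). CXCL1 (-0.72) and TNFAIP3 (-0.63) were lower in all 4 pairs without passing the test, and NFKBIA differed by -0.02. Without the SSP25 pair lacking mTORi INHBA kept its call, and no other of the list's 5 calls was kept with any pair left out. With quantile normalization 2 of the 5 were kept. The list's median was -0.06 and -0.09 in the SNU1079 pairs, and -0.56 and -0.37 in the SSP25 pairs, lacking mTORi first.

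**Figure D4:**
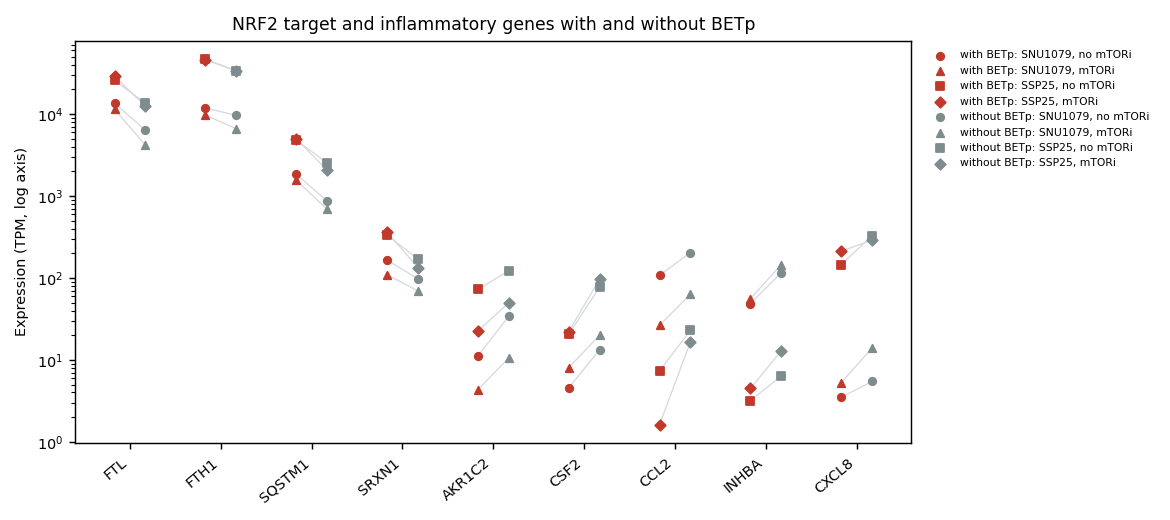
TPM (log axis) of 5 NRF2 target genes and 4 inflammatory genes in each sample, with BETp in red on the left of each gene and without BETp in grey on the right, joined by pair. Lines slope 1 way within each gene: with BETp, FTL was higher in all pairs (11372 to 29011 TPM with BETp, 4189 to 13559 TPM without BETp) and CSF2 lower (4.55 to 22.2 TPM with BETp, 13.3 to 96.6 TPM without BETp).

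The remaining leading falls included genes of secreted proteins. LGALS9, which encodes the lectin galectin-9, had 20.1, 10.0, 3.55 and 2.22 TPM with BETp, against 34.9, 24.4, 11.0 and 12.6 TPM without BETp (-1.36 ± 0.20). SCG5, a chaperone of secretory granules, had 3.74, 8.61, 14.3 and 24.8 TPM with BETp, against 11.8, 22.8, 32.5 and 72.0 TPM without BETp (-1.34 ± 0.09, limma adjusted p = 0.0097). SCG5 kept its call without the SSP25 pair lacking mTORi and lost it without any other pair. CCL26, a chemokine for eosinophils, fell by 1.25 ± 0.14 and EBI3, a subunit of the cytokine IL-27, by 1.20 ± 0.13. The others were KCCAT211, an RNA gene (-1.42), SUGCT, a mitochondrial CoA-transferase (-1.36), PCED1B (-1.32), EVI2A, a gene within an intron of NF1 (-1.19), and SNCG, gamma-synuclein (-1.14). Each was lower with BETp in all 4 pairs. The calls of PCED1B and SNCG, like that of CCL2, were lost with quantile normalization.

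A few genes of cell division fell with BETp, and the list moved little in 1 pair. Of 36 tested mitosis genes 4 fell and 0 rose, and 25 were lower and 0 higher in all 4 pairs. The median was -0.57, beside -0.08 over all genes. In the 4 pairs it was -0.10 (SNU1079 lacking mTORi), -0.97 (SNU1079 with mTORi), -0.43 (SSP25 lacking mTORi) and -0.74 (SSP25 with mTORi). Summed over the list, these genes had 1450, 1308, 1786 and 906 TPM with BETp, against 1555, 2616, 2440 and 1589 TPM without BETp. The SNU1079 mTORi sample had the highest sum of all samples, and the largest of the pair medians was measured against it. PLK1, a kinase that drives mitosis, had 38.6, 34.0, 65.6 and 27.0 TPM with BETp, against 51.5, 74.6, 94.9 and 52.9 TPM without BETp (-0.75 ± 0.13, limma adjusted p = 0.043). PRC1, which bundles microtubules of the spindle midzone, fell by 0.77 ± 0.14, MAD2L1 of the spindle checkpoint by 0.69 ± 0.10 and ECT2, which places the cleavage furrow, by 0.62 ± 0.10. No mitosis call was kept with any pair left out. Of 36 DNA replication genes MCM4 (-0.56 ± 0.09) and MCM2 (-0.47 ± 0.09), subunits of the replicative helicase, fell, and 13 were lower and 0 higher in all 4 pairs, with a median of -0.38. Their median was 0.0078 in the SNU1079 pair lacking mTORi and -0.40 to -0.58 in the other pairs, while the median of the clustered histones was above 0 in all 4 pairs, and the part of cell cycle phase in either was not tested. In bulk RNA, fewer dividing cells and less of these transcripts per cell cannot be told apart. Of 11 G1 cyclins and CDKs, CCND3 fell (-0.36 ± 0.06).

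Neither apoptosis list gave a call by limma. Of 16 genes of the BCL2 family 0 were called (4 at an unadjusted p below 0.05) and 5 were lower in all 4 pairs. Of 19 caspases and inhibitors of apoptosis 0 were called (5 at an unadjusted p below 0.05), and 4 were lower and 1 higher in all 4 pairs. Over all tested genes 23.2% were lower and 8.88% higher in all 4 pairs. BIRC5 (survivin), which is also a mitosis gene, was the furthest, at -0.68 ± 0.18 (limma adjusted p = 0.085). Of 19 p53 targets and CDK inhibitors 0 were called by limma (5 at an unadjusted p below 0.05).

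Amino acid and one-carbon genes gave few calls, and those called fell. Of 27 genes of serine, glycine and one-carbon metabolism, a list that follows the pathway the study chose on these samples and so is no independent evidence of direction, 2 fell and 0 rose, 10 were lower and 1 higher in all 4 pairs, and the median was -0.25. MTHFD2, the mitochondrial folate enzyme, had 70.0, 45.9, 91.6 and 48.8 TPM with BETp, against 115, 87.9, 123 and 66.1 TPM without BETp (-0.62 ± 0.10, limma adjusted p = 0.038). SHMT2, which moves a carbon from serine to folate, had 115, 78.3, 169 and 104 TPM with BETp, against 144, 112, 240 and 137 TPM without BETp (-0.43 ± 0.06, limma adjusted p = 0.029). PSAT1, of serine synthesis, had 98.5, 49.3, 179 and 67.8 TPM with BETp, against 185, 109, 254 and 67.1 TPM without BETp. It was lower in 3 pairs and level in the SSP25 pair with mTORi (-0.63 ± 0.18, limma adjusted p = 0.096). PHGDH, the first enzyme of the path, was lower in all 4 pairs (-0.25 ± 0.10, limma adjusted p = 0.19) but lay below 1 TPM in every SNU1079 sample.

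Of 26 genes of ATF4 and the stress response 3 fell and 0 rose, and 12 were lower and 1 higher in all 4 pairs. TRIB3, a pseudokinase induced by ATF4, had 63.0, 44.2, 91.4 and 48.1 TPM with BETp, against 159, 109, 170 and 70.2 TPM without BETp (-1.01 ± 0.14, limma adjusted p = 0.031). NUPR1, a small chromatin protein induced by stress, had 82.2, 49.8, 114 and 54.8 TPM with BETp, against 167, 95.7, 186 and 122 TPM without BETp (-0.94 ± 0.08, limma adjusted p = 0.010). Every pair of both genes was lower, and the call of NUPR1 held without the SSP25 pair lacking mTORi. XPOT, the tRNA exporter, fell by 0.57 ± 0.11. Of 20 tRNA synthetases NARS fell (-0.38 ± 0.07) and 9 were lower in all 4 pairs. In the mTOR pathway list EIF4EBP1, the translation brake that mTOR phosphorylates, fell by 0.43 ± 0.06, the only call among 26 genes. Apart from NUPR1, no call of these lists was kept with any pair left out.

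Transcripts for ribosomes and those of the mitochondrial genome moved by small amounts in opposite directions. Of 79 ribosomal protein genes 14 fell and 0 rose, and 57 were lower and 0 higher in all 4 pairs, with a median of -0.16. RPL21 had 1063, 1160, 978 and 999 TPM with BETp, against 1355, 1480, 1200 and 1243 TPM without BETp (-0.33 ± 0.04). Of 13 mRNAs of the mitochondrial genome 12 rose and 13 were higher in all 4 pairs, with a median of 0.28. MT-CO2, a subunit of cytochrome oxidase, had 22852, 24406, 9214 and 13090 TPM with BETp, against 19513, 18958, 7411 and 10559 TPM without BETp (0.30 ± 0.04). These 13 together took 15.4, 17.3, 6.79 and 9.49% of all TPM with BETp, against 13.0, 13.9, 5.62 and 8.09% without BETp. A shift of 0.08 in the median of all genes is not small beside these differences. With quantile normalization 0 of the 14 and 2 of the 12 calls were kept, the medians were -0.11 and 0.12, and no call of either list was kept with any pair left out.

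Matrix, surface and signalling genes gave scattered calls. Of 29 genes of matrix and epithelial-mesenchymal transition 3 fell and 0 rose, and 15 were lower in all 4 pairs. THBS1 (thrombospondin) fell by 0.73 ± 0.07, S100A4 by 0.71 ± 0.06 and TGFBI by 0.30 ± 0.06. ETV4, an ETS factor downstream of ERK, had 3.76, 6.16, 5.39 and 7.77 TPM with BETp, against 8.0, 15.1, 14.3 and 11.7 TPM without BETp (-0.97 ± 0.14). Of 18 genes of that list 10 were lower and 0 higher in all 4 pairs. EGR1, an early response factor of low level, rose, with 9.58, 7.22, 1.36 and 1.79 TPM with BETp, against 3.79, 2.96, 0.40 and 0.29 TPM without BETp (1.02 ± 0.12). TXNIP, an arrestin that restrains glucose uptake, had 45.9, 77.0, 63.4 and 93.9 TPM with BETp, against 35.4, 51.2, 41.8 and 45.6 TPM without BETp (0.64 ± 0.11). None of these calls was kept with any pair left out.

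The labelled cell type was checked against marker genes. All 8 biliary markers were measured, with KRT19 at 1923, 1715, 465 and 307 TPM with BETp, against 1927, 1527, 401 and 381 TPM without BETp. EPCAM, an epithelial adhesion molecule, had 61.6, 59.7, 0.90 and 1.02 TPM with BETp, against 101, 101, 1.74 and 1.51 TPM without BETp, so that it was near absent in SSP25, and it fell by 0.57 ± 0.10 (limma adjusted p = 0.045). Of 6 hepatocyte, 4 fibroblast, 4 endothelial and 5 leukocyte markers, 2, 2, 0 and 1 reached the expression limit, and by limma 0 of these 5 were called (2 at an unadjusted p below 0.05). COL1A1, a collagen gene on the fibroblast list, stood at 546 and 272 TPM in SNU1079 with BETp, against 1003 and 599 TPM in SNU1079 without BETp, and at 2.16 TPM or below in SSP25.

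The BETp effect was then compared between lines and between mTORi states. Only 1 gene, the small nucleolar RNA SNORA3B, passed the test of a line difference (1984 at an unadjusted p below 0.05), and 0 passed that of an mTORi difference with limma (475 at an unadjusted p below 0.05). These fits have 2 residual degrees of freedom. SNORA3B, named after its values were seen, had 46.7 and 38.0 TPM in SNU1079 with BETp and was listed at 0 in all 6 other samples. KRT7, a biliary keratin, had 3731, 3746, 404 and 410 TPM with BETp, against 3009, 2909, 688 and 812 TPM without BETp. It was thus higher in both SNU1079 pairs and lower in both SSP25 pairs, with a line difference of 1.21 ± 0.10 that did not pass (limma adjusted p = 0.12). C3, a complement gene, had 28.4, 27.5, 485 and 624 TPM with BETp, against 65.0, 53.7, 425 and 559 TPM without BETp, a line difference of -1.23 ± 0.11 (limma adjusted p = 0.12). C3 was thus lower in both SNU1079 pairs and higher in both SSP25 pairs. The medians of the interferon response list were 0.06 and 0 in the SNU1079 pairs and -0.50 and -0.91 in the SSP25 pairs, and 1 of its 29 genes, USP18, fell (-0.68 ± 0.13, limma adjusted p = 0.049). GDF15 had 799, 898, 98.8 and 67.2 TPM with BETp, against 1056, 876, 150 and 54.4 TPM without BETp. It was lower in both pairs lacking mTORi and higher in both pairs with mTORi (mTORi difference 0.67 ± 0.14, limma adjusted p = 0.999).

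**Figure D5:**
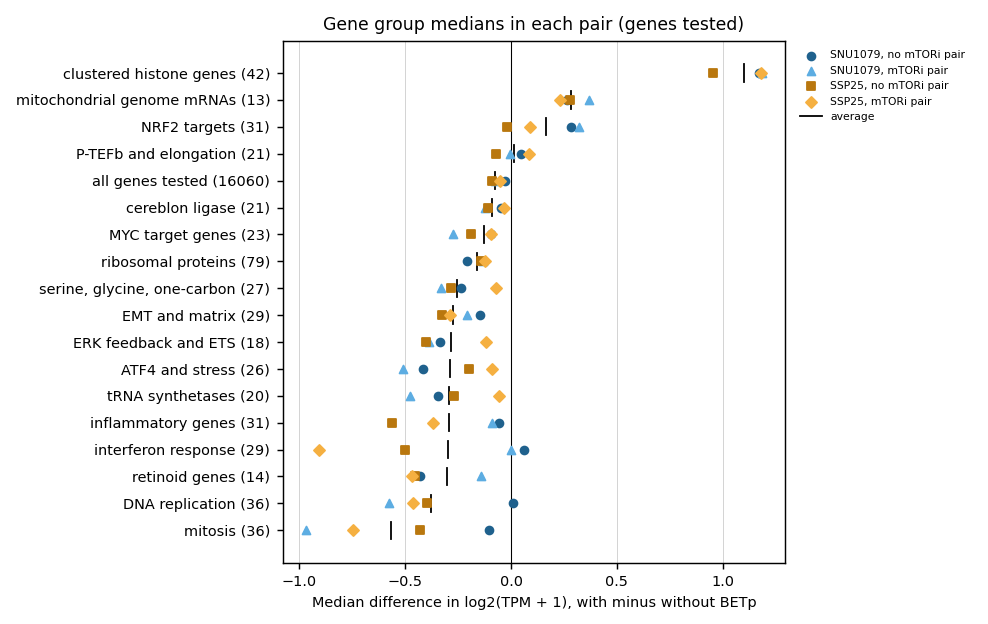
Median difference in log2(TPM + 1), with minus without BETp, of 17 gene groups and of all tested genes, 1 point per pair, with the median of the averages as a black bar and the number of genes in brackets. Clustered histones lie at 0.96 to 1.19 in every pair, mitosis genes at -0.10 to -0.97, and the interferon list near 0 in SNU1079 and at -0.50 and -0.91 in SSP25.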

How the data were processed

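RNA of 8 samples, 4 with BETp and 4 without it, was sequenced as strand-specific libraries (dUTP method, 100 bp paired reads). The authors deposited TPM, a length-adjusted abundance, in 1 table per cell line for 56269 genes. The genome build was GRCh37, as in the submitters' processing notes, where edgeR and DESeq2 also appear. Which aligner and annotation made the values was not given in the sources used here. Since depth is lost in TPM, intervals of counting error could not be given. Columns were matched to samples by their titles, and 0 columns were left unmatched. No 2 samples held identical values.

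Values were transformed to log2(TPM + 1), and the 16060 genes that reached 1 TPM in 2 or more samples were kept. Linear models with BETp and pair as terms (3 residual degrees of freedom) were fitted with limma (version 3.58.1, R 4.3.3; eBayes with an intensity trend). Two-sided p-values were corrected over all of these genes (Benjamini-Hochberg), with calls at 0.05. Differences of the BETp effect between lines and between mTORi states were tested as added terms (2 residual degrees of freedom). Pairs came from the shared cell line and mTORi state, and deviations of paired samples from their group means correlated at 0.90 to 0.92 across genes. The fits were tested on simulated data.

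Gene lists, 53 in all, were written from general knowledge. The comparison, its lists and its rules were chosen with earlier results of these data known. Named genes were the drug targets with MYC and HEXIM1, the called genes with a mean of at least 5 TPM that rose or fell most, 12 each way, with 1 direction in all 4 pairs (names of short RNAs and clones left out), up to 5 called members of each list (or the 2 furthest members where fewer than 2 were called), and, by the same limits, 3 genes each way with the smallest adjusted p in each difference test. Other genes given with values are members of these lists, and a few genes that the rule names are not reported here. Positions came from GENCODE (GRCh37) by symbol, for 34633 genes. Promoter windows are RefSeq's on GRCh38.p14, matched for 17116 genes, among them 65 of 119 that rose and 275 of 343 that fell. For genes that fell, 6.96% of windows held TATAAA and 34.1% CCAAT. For genes that rose outside the histone clusters these shares were 1.69% and 30.5%, and for all tested genes 6.36% and 35.0%. Tried as alternatives were 0.1 as pseudocount, a filter at 5 TPM or none, quantile normalization, rescaling without mitochondrial, ribosomal protein and ferritin genes, robust moderation without trend, cell line and mTORi as additive terms, no replicate block, and leaving out each pair.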

Additional observations from a re-analysis of the deposited data

Results flagged for a closer look

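In 4 pairs, a value was singled out where its gap to the nearest other pair was a large part of the whole range, which chance does for about 1 in 20 such groups. Among 207 gene and list values examined, 10 were singled out. The median of the clustered histones was 0.955 in the SSP25 pair lacking mTORi and 1.17 to 1.19 in the other pairs. The small RNA median was 0.423 in the same pair and -0.0517 to 0 in the others. G1 cyclins and CDKs had a median of 0.0549 in the SNU1079 pair lacking mTORi and -0.385 to -0.332 in the others. In that pair CDKN2C, a CDK inhibitor, differed by 0.0993 (others -0.844 to -0.705), BCL2L2 by -0.737 (others -0.248 to -0.223) and HIST3H2A by 0.636 (others 1.31 to 1.44). In the SNU1079 pair with mTORi the glucose sensing arrestins had a median of 0.559 (others 0.0845 to 0.13), the retinoid genes one of -0.144 (others -0.467 to -0.431), and RPL27A differed by -0.18 (others -0.327 to -0.314). IDH2 differed by 0.048 in the SSP25 pair lacking mTORi and by -0.6 to -0.492 in the others.

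Between lines, the list medians of the MYC network and of glycolysis and hypoxia genes had opposite signs in both pairs of each line. The mean of the SNU1079 pairs minus that of the SSP25 pairs was -0.128 for the MYC network and -0.287 for glycolysis and hypoxia, and these differences were not tested. SNORA3B passed the test of a line difference (5.43, limma adjusted p = 0.024), since it was listed at 0 in all samples but the 2 SNU1079 samples with BETp (46.7 and 38.0 TPM). It falls outside the rule for named genes and was chosen after its values were seen.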

How the results depend on the processing

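The count of called genes was not stable, while the directions of the called genes were. Over all tested genes directions did shift. With quantile normalization 2647 were higher and 2268 lower in all 4 pairs, against 1426 and 3723. Against 462 calls (119 higher, 343 lower), limma gave 238 (65 and 173) with a pseudocount of 0.1, 992 (227 and 765) with a filter at 5 TPM, 240 (138 and 102) with quantile normalization, 205 (87 and 118) after rescaling without mitochondrial, ribosomal protein and ferritin genes, and 292 (74 and 218) with cell line and mTORi as additive terms. It gave 0 calls in either direction with no filter (4277 at an unadjusted p below 0.05), with robust moderation without trend (3751) and with no replicate block (355), which left cell line differences in the spread. Leaving out a pair gave 3 to 12 calls, 3 to 12 of them higher and 0 to 4 lower. Of the 462 genes, 461 kept their sign with quantile normalization, and all 433 that were tested did so after rescaling. The other fits could not change it. The causes of these shifts were otherwise not tested.

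Genes that differed by at least 0.5 in every pair numbered 360 with a pseudocount of 0.1 and 254 to 336 with a pair left out, against 151. Line differences were called for 0 genes with a pseudocount of 0.1, with no filter and with a pair left out, and for 37 with a filter at 5 TPM, against 1. The clustered histone median of 1.10 was 1.53 with a pseudocount of 0.1, 0.42 with no filter, 1.61 with a filter at 5 TPM, 1.23 after rescaling and 0.91 to 1.12 with a pair left out. Quantile normalization moved the mitochondrial mRNA median to 0.12 and the ribosomal protein median to -0.11, and turned the sign of the median of all genes (0.0023), the mTOR pathway (0.015), mitochondrial ribosomal proteins (0.0032), early response factors (0.03), fatty acid synthesis (0.02), metallothioneins (-0.04), histone acetyltransferases and deacetylases (0.056), YAP and TAZ targets (0.07), iron handling (0.05) and cholangiocarcinoma drivers (0.06). The last 4 also turned after rescaling, to 0.033, 0.05, 0.02 and 0.04. No named gene that was called changed direction under these alternatives, of which only quantile normalization and rescaling could have changed it.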

Other observations

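A few retinoid and conjugation genes fell with BETp. Of 14 tested retinoid genes 3 fell and 0 rose, and 5 were lower and 0 higher in all 4 pairs. STRA6, the cell surface receptor for retinol-binding protein, had 1.09, 0.52, 2.18 and 1.56 TPM with BETp, against 3.51, 2.00, 7.32 and 4.32 TPM without BETp (-1.13 ± 0.12, limma adjusted p = 0.021). ALDH1A3, which makes retinoic acid, had 66.4, 49.7, 45 and 47.7 TPM with BETp, against 114, 79.9, 71.3 and 83.6 TPM without BETp (-0.72 ± 0.06, limma adjusted p = 0.0099), and these groups did not overlap. RARRES3, a retinoid-induced phospholipase, fell by 0.67 ± 0.11. Of 15 UGT1A and ABC exporter genes UGT1A1 (-0.92 ± 0.11), UGT1A6 (-0.74 ± 0.11) and ABCC4 (-0.39 ± 0.07) fell and 0 rose, and 5 were lower and 1 higher in all 4 pairs. UGT1A genes share their last exons, so reads may be split among them. No call of these lists was kept by limma with any pair left out.

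Of the growth factor and receptor list, IGFBP4, which binds insulin-like growth factors, fell by 0.61 ± 0.08, and HBEGF, a ligand of the EGF receptor, rose by 0.41 ± 0.07. Among the ER chaperones XBP1, a factor of the unfolded protein response, fell by 0.48 ± 0.07 and PDIA6 by 0.34 ± 0.06. FADS1, a fatty acid desaturase, fell by 0.65 ± 0.12, and CTSS, a lysosomal protease, by 0.74 ± 0.12. STEAP3, an iron reductase, fell by 0.51 ± 0.06 while both ferritin genes of the same iron list rose.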
